A study of Mus musculus with 12 samples.

Results

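The genes described here encode 10 secreted growth and repair factors that eosinophils are known or proposed to make: Hgf, Csf1, Igf1, Tgfb1, Tgfbi, Osm, Hbegf, Vegfa, Areg and Pdgfb. They were taken from the deposited count table by exact gene symbol, and all 10 were found among its 39666 genes. Their levels were compared between airway eosinophils with and without the receptor TREM-1 at the surface. Of the 10 genes, 8 had enough counts to be tested. Hgf, Csf1 and, from few counts, Igf1 were higher in TREM-1+ than in TREM-1- eosinophils, Osm and Tgfbi were lower, and Tgfb1, Hbegf and Vegfa were not called. Areg and Pdgfb were near or at 0 counts in most libraries.

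Both groups were wild-type C57BL/6 mice aged 8 to 12 weeks with ovalbumin-induced airway allergy. Sensitization used 20 µg ovalbumin in 4 mg alum on days 0 and 7, nebulized 1% ovalbumin was inhaled for 40 minutes a day on days 16 to 18, and lungs were lavaged on day 19. Siglec-F+ eosinophils of each pooled lavage were sorted by TREM-1 and gave a positive and a negative library, in all 6 pairs or 12 libraries of ribosome-depleted total RNA. No unchallenged mice are part of the comparison, so each difference is between 2 fractions of the same inflamed airway. Whether different mice went into each lavage is not stated, and p-values therefore refer to the spread over these 6 pools only.

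Growth and repair factors are secreted or shed proteins that tell neighbouring cells to divide, survive, move or lay down matrix. Several are made as inactive or tethered precursors: latent TGF-beta is released by integrins, pro-HGF is cut by serine proteases, and HB-EGF, amphiregulin and the membrane form of CSF-1 are shed by metalloproteases. In allergic airways eosinophils have been described as a source of TGF-beta and VEGF, which are linked to subepithelial matrix and vessel growth.

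Total counts were 8626701 to 19274912 in TREM-1+ libraries and 16513387 to 21234053 in TREM-1- libraries, and the TREM-1+ total was the lower one in 6 of 6 lavages. Levels are CPM, counts put on a common library total to account for that difference and then scaled with trimmed-mean-of-M-values (TMM) factors. The factors were 1.008 to 1.132 in TREM-1+ and 0.9215 to 1.01 in TREM-1- libraries, with TREM-1+ the higher in every lavage. Trem1, the sorted antigen, averaged 93.2 ± 20.0 CPM in TREM-1+ against 30.7 ± 8.12 CPM in TREM-1- eosinophils (SD, n = 6 each), without overlap. All 10 eosinophil markers examined were detected and tested: Prg2, Alox15 and Ear6 were called higher in TREM-1+, and Siglecf, Ccr3, Il5ra, Prg3 and Il1rl1 lower. Their summed level was 4487 to 6723 CPM in TREM-1+ against 4521 to 6814 CPM in TREM-1- libraries. Alox15 was the largest part of that sum, with means of 2542 of 5820 CPM in TREM-1+ and 2239 of 5762 CPM in TREM-1-. The overlapping ranges of the sum thus do not show that eosinophil RNA was equal. In bulk RNA, fewer cells that express a gene and less of its RNA per cell cannot be told apart. The libraries of lavages 1 and 2 lay together and apart from the rest in Hgf, Igf1 and Tgfb1, though not in Csf1. It is uncertain whether lavages 1 and 2 are independent pools. Fits of lavages 1 and 2 alone thus rest on 2 pairs that may not be independent, which limits their calls.

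The log2 fold change of a gene (TREM-1+ minus TREM-1-) came from a model fitted to all 18302 tested genes with the lavage as a block, and a gene was called at an edgeR adjusted p below 0.05. Of the 8 tested growth and repair factors, 5 were called, while 1797 of all tested genes were (9.82%). The 3 called higher stand beside 3.10% of all tested genes, and the 2 called lower beside 6.72%. In 4 of the 8, Hgf, Csf1, Tgfbi and Osm, the difference had the same sign in 6 of 6 lavages, which held for 13.4% of all tested genes. Only in Hgf did the 6 TREM-1+ levels lie wholly apart from the 6 TREM-1- levels, as in 0.951% of all tested genes. The median log2 fold change was -0.09 over the 8 and 0.00 over all tested genes. In the count table the genes carry the NCBI identifiers 15234 for Hgf, 12977 for Csf1, 16000 for Igf1, 21803 for Tgfb1, 21810 for Tgfbi, 18413 for Osm, 15200 for Hbegf, 22339 for Vegfa, 11839 for Areg and 18591 for Pdgfb.

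**Figure D1:**
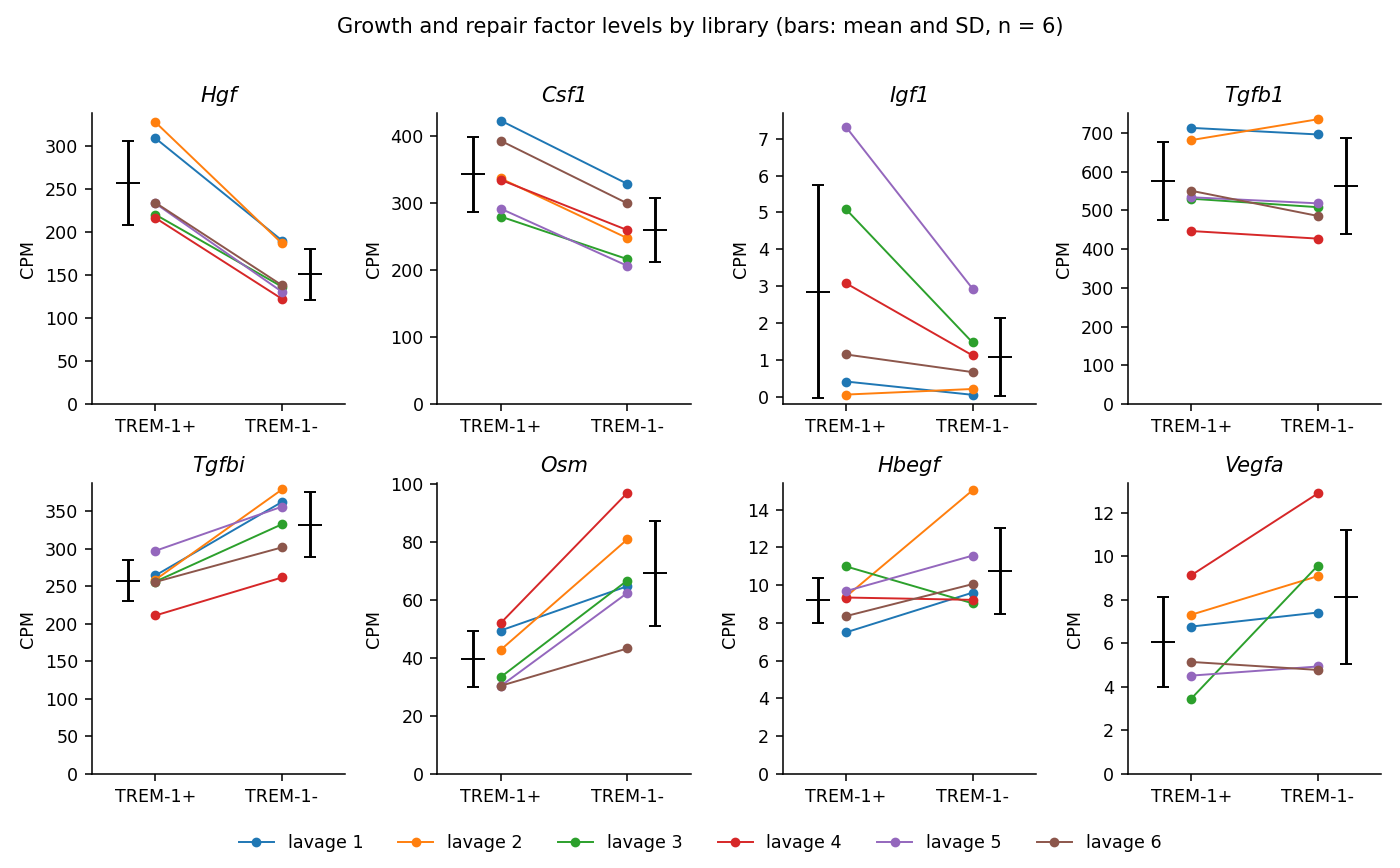
Levels of the 8 tested growth and repair factors in CPM (vertical axis, linear, one scale per gene) in TREM-1+ and TREM-1- libraries. Each line joins the 2 fractions of 1 lavage, and bars give the mean and SD (n = 6). All lines slope down from TREM-1+ to TREM-1- for Hgf and Csf1 and up for Tgfbi and Osm, while those of the other 4 genes differ in direction.

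Hgf encodes hepatocyte growth factor, which acts on epithelial and endothelial cells through the receptor tyrosine kinase MET. In lavages 1 to 6 the TREM-1+ libraries held 308.7, 327.3, 220.0, 216.1, 233.0 and 233.8 CPM of Hgf, and the TREM-1- libraries 189.9, 186.5, 136.2, 122.1, 130.3 and 137.9 CPM. Every TREM-1+ level was above every TREM-1- level, and lavages 1 and 2 were the highest in both fractions. The mean was 256.5 ± 48.5 CPM in TREM-1+ against 150.5 ± 29.8 CPM in TREM-1- eosinophils (SD, n = 6 each). This is a log2 fold change of 0.77 ± 0.04 (SE) or 1.71-fold (edgeR adjusted p = 6.56e-16), and its p ranked at position 2 among the 18302 tested genes. The 6 within-lavage differences were nearly alike, from 0.69 to 0.84 on the log2 scale. They were as large in lavages 1 and 2 alone (0.78) as in lavages 3 to 6 alone (0.77).

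Csf1 encodes macrophage colony-stimulating factor, the survival and growth factor of macrophages and monocytes. Its TREM-1+ libraries held 422.9, 336.6, 279.7, 334.5, 291.5 and 392.8 CPM in lavages 1 to 6, and its TREM-1- libraries 328.5, 247.5, 216.2, 259.5, 206.2 and 299.4 CPM. The levels of the fractions overlapped across lavages, since lavage 1 was high and lavages 3 and 5 low in both, but within each lavage TREM-1+ was the higher. Csf1 was thus 1.33-fold higher, a log2 fold change of 0.41 ± 0.03 (SE; edgeR adjusted p = 1.92e-10). The paired differences were as even as those of Hgf, with 0.42 in lavages 1 and 2 alone and 0.40 in lavages 3 to 6 alone.

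Igf1 encodes insulin-like growth factor 1, which in the lung is known chiefly from macrophages and mesenchymal cells. It was a low gene: the TREM-1+ libraries held 0.411, 0.0559, 5.09, 3.08, 7.32 and 1.15 CPM in lavages 1 to 6, and the TREM-1- libraries 0.0495, 0.208, 1.47, 1.12, 2.93 and 0.666 CPM. In counts these were 8, 1, 75, 30, 115 and 20 in TREM-1+ and 1, 4, 27, 17, 54 and 11 in TREM-1- libraries. The level varied 131-fold over lavages within TREM-1+ and 59.2-fold within TREM-1-, far more than between the fractions, and lavages 1 and 2 were lowest in both. TREM-1+ was higher in 5 of 6 lavages, lavage 2 being the exception with 1 count against 4. The fit put the log2 fold change at 1.29 ± 0.36 (SE; edgeR adjusted p = 0.0152). The call was lost without lavage 3 (1.14, edgeR adjusted p = 0.0699), without lavage 4 (1.25, adjusted p = 0.0579) and without lavage 5 (1.25, adjusted p = 0.133), so it rests on few libraries. In lavages 3 to 6 alone the log2 fold change was 1.37 (edgeR adjusted p = 0.00817), and in lavages 1 and 2 alone Igf1 did not pass the filter.

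Markers of other cell types also varied between lavages. Of 13 markers of T and innate lymphoid cells, 12 were tested, 10 were called higher in TREM-1+ and 0 lower, and none was at 0 in all libraries. Their summed level was 21.6, 22.0, 199.3, 152.0, 114.9 and 91.8 CPM in TREM-1+ against 18.8, 16.3, 81.3, 98.0, 62.9 and 56.1 CPM in TREM-1- libraries of lavages 1 to 6. This sum was lowest in lavages 1 and 2 in both fractions, and highest in lavage 3 in TREM-1+ and lavage 4 in TREM-1-. The sum was higher in TREM-1+ in 6 of 6 lavages (exact sign-flip permutation p = 0.0312, the smallest that 64 sign patterns allow, adjusted p = 0.104 over 10 marker lists). Of 22 macrophage and monocyte markers, 15 were tested, 5 were called higher, among them Pparg, Cd68, Lyz2 and Ccr2, and 1 lower (Ly6c2). The macrophage and monocyte sum was 729.2 to 1485 CPM in TREM-1+ against 929.7 to 1457 CPM in TREM-1- libraries. Ly6c2 was the largest part of that sum. For TREM-1+ its mean was 539.6 of 1172 CPM, and for TREM-1- it was 667.1 of 1117 CPM. Ly6c2 was higher in TREM-1+ in 0 of 6 lavages, whereas Pparg, Cd68, Lyz2 and Ccr2 were each higher in 6 of 6. The overlapping ranges of the sum thus do not show that macrophage RNA was equal. Marco, C1qa, C1qb, C1qc, Fabp4, Trem2 and Folr2 averaged under 1 CPM, and none of the 22 was at 0 in all libraries. Chil3, at 25.9 to 572.6 CPM in TREM-1+ against 2.86 to 464.1 CPM in TREM-1- libraries, and Mrc1, at 0.950 to 23.6 CPM in TREM-1+ against 0 to 18.5 CPM in TREM-1- libraries, both markers of alveolar or alternatively activated macrophages, varied widely. Each was higher in TREM-1+ in 6 of 6 lavages but not called (edgeR adjusted p = 0.0877 for Chil3 and 0.0829 for Mrc1). Of 7 dendritic cell markers 5 were tested and 0 called, and none was at 0 in all libraries. Their sum was 15.6 to 31.7 CPM in TREM-1+ against 14.2 to 21.9 CPM in TREM-1- libraries, higher in TREM-1+ in 6 of 6 lavages (exact sign-flip permutation p = 0.0312, adjusted p = 0.104). The part of T cell, macrophage and dendritic cell markers in the Igf1 difference was not tested.

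Of 12 neutrophil markers, 7 were tested, of which S100a8, S100a9, Ltf, Ngp and Ly6g were called higher in TREM-1+ and Retnlg and Mmp9 lower. The neutrophil sum was 1161 to 2099 CPM in TREM-1+ against 1512 to 2185 CPM in TREM-1- libraries, and was lower in TREM-1+ in 6 of 6 lavages (exact sign-flip permutation p = 0.0312, adjusted p = 0.104). Retnlg made up most of that sum. For TREM-1+ its mean was 1244 of 1606 CPM, and for TREM-1- it was 1603 of 1955 CPM. The sum therefore mainly followed Retnlg, whereas S100a8, S100a9, Ltf, Ngp and Ly6g were each higher in TREM-1+ in 6 of 6 lavages. Whether neutrophil RNA as a whole differed between the fractions is not shown by the sum. Elane was at 0 in all libraries, and Camp, Lcn2, Mmp8 and Mpo averaged under 1 CPM. The part of neutrophil transcripts in the differences of Hgf, Csf1, Tgfbi and Osm was not tested.

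**Figure D2:**
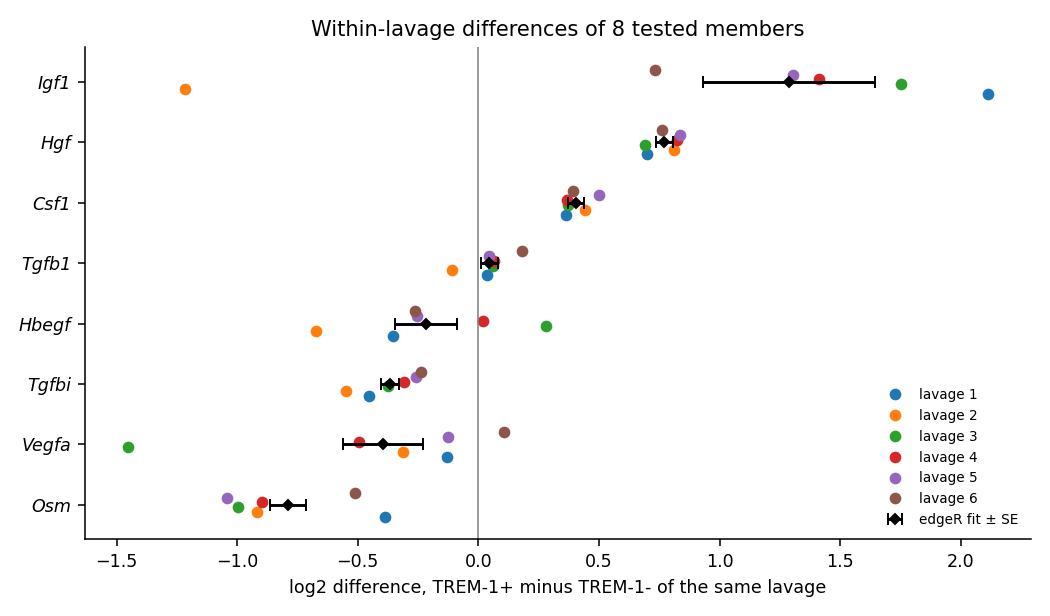
Within-lavage differences of the 8 tested genes (horizontal axis, log2 CPM of TREM-1+ minus TREM-1- of the same lavage; 1 coloured point per lavage). Black diamonds and bars give the fitted log2 fold change and its SE. The 6 points of Hgf lie between 0.69 and 0.84 and those of Osm between -1.04 and -0.39, while the points of Igf1, Hbegf and Vegfa lie on both sides of 0.

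Tgfb1, which encodes transforming growth factor beta 1, was the most abundant of the 10 genes. Its TREM-1+ libraries held 713.1, 681.5, 530.2, 446.7, 533.9 and 550.7 CPM in lavages 1 to 6, and its TREM-1- libraries 696.1, 735.3, 508.3, 427.1, 518.2 and 485.7 CPM. The fractions overlapped nearly throughout, and the lavages differed more than the fractions, with lavages 1 and 2 highest in both. With a log2 fold change of 0.05 ± 0.03 (SE), Tgfb1 was not called (edgeR adjusted p = 0.532). When libraries were scaled by their totals alone, without TMM factors, it was 0.17 and called (edgeR adjusted p = 0.00774), but that scaling also moved the median of all tested genes to 0.13.

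Tgfbi encodes a matrix protein that TGF-beta induces and that binds collagen and integrins. The TREM-1+ libraries held 264.3, 258.6, 256.1, 211.0, 297.1 and 255.6 CPM of Tgfbi in lavages 1 to 6, and the TREM-1- libraries 362.2, 378.8, 332.5, 261.6, 355.9 and 301.7 CPM. TREM-1+ was the lower fraction in 6 of 6 lavages, and the ranges overlapped because lavage 4 was low in both. Tgfbi fell by 0.37 ± 0.04 on the log2 scale (SE; edgeR adjusted p = 2.11e-08). The paired differences ran from -0.55 to -0.24, and the fall was -0.48 in lavages 1 and 2 alone and -0.30 in lavages 3 to 6 alone, called in both.

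Osm encodes oncostatin M, a cytokine of the interleukin-6 family that acts on epithelium and stroma. Its TREM-1+ libraries held 49.5, 42.8, 33.4, 52.0, 30.3 and 30.4 CPM in lavages 1 to 6, and its TREM-1- libraries 64.8, 80.9, 66.7, 97.0, 62.4 and 43.3 CPM. Lavage 4 was the highest and lavage 6 among the lowest in both fractions, and TREM-1+ was lower in 6 of 6 lavages. The mean was 39.7 ± 9.72 CPM in TREM-1+ against 69.2 ± 18.2 CPM in TREM-1- eosinophils (SD, n = 6 each). Osm fell by 0.79 ± 0.08 on the log2 scale (SE; edgeR adjusted p = 1.22e-07), so TREM-1+ held 0.578 times the TREM-1- level. The fall was -0.63 in lavages 1 and 2 alone and -0.87 in lavages 3 to 6 alone, called in both.

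Hbegf and Vegfa were low. Hbegf encodes heparin-binding EGF-like growth factor, a ligand of the EGF receptor. It stood at 7.49, 9.39, 10.99, 9.34, 9.68 and 8.36 CPM in TREM-1+, against 9.60, 15.02, 9.04, 9.22, 11.6 and 10.1 CPM in TREM-1- libraries of lavages 1 to 6. Its levels overlapped, and the fraction that was higher differed between lavages. Its log2 fold change of -0.22 ± 0.13 (SE) did not pass (edgeR adjusted p = 0.380) and was -0.12 without lavage 2. It was called in lavages 1 and 2 alone (-0.51, edgeR adjusted p = 0.0279), which are 2 pairs that may not be independent. In lavages 3 to 6 alone it was not called (-0.06, edgeR adjusted p = 0.925). The difference between these sets of lavages was not tested.

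Vegfa, which encodes the endothelial growth factor VEGF-A, stood at 6.78, 7.32, 3.46, 9.14, 4.52 and 5.15 CPM in TREM-1+, against 7.42, 9.10, 9.58, 12.9, 4.94 and 4.78 CPM in TREM-1- libraries of lavages 1 to 6. TREM-1+ was lower in 5 of 6 lavages, by most in lavage 3, and the ranges overlapped. Lavage 3 weighed on the value, which was -0.20 without it and -0.13 without lavages 3 and 4. The fitted difference of -0.40 ± 0.17 (log2, SE) had an edgeR adjusted p = 0.155, which misses the threshold but does not show that the fractions are equal.

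Areg, which encodes amphiregulin, an EGF receptor ligand of tissue repair, had 2 counts in the TREM-1+ library of lavage 3, 2 counts in the TREM-1- library of lavage 4 and 0 in the other 10 libraries. A count of 0 allows up to 3 counts, which is 0.148 to 0.308 CPM depending on the library, so any Areg transcript was near or under the depth. Pdgfb, which encodes the platelet-derived growth factor B chain, had 0, 0, 12, 11, 0 and 10 counts in TREM-1+ and 0, 0, 6, 0, 3 and 0 counts in TREM-1- libraries of lavages 1 to 6. Both genes failed the filter on low counts, and neither is in the deposited log2 table. Without the filter neither was called (edgeR adjusted p = 0.989 for Areg and 0.653 for Pdgfb).

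**Figure D3:**
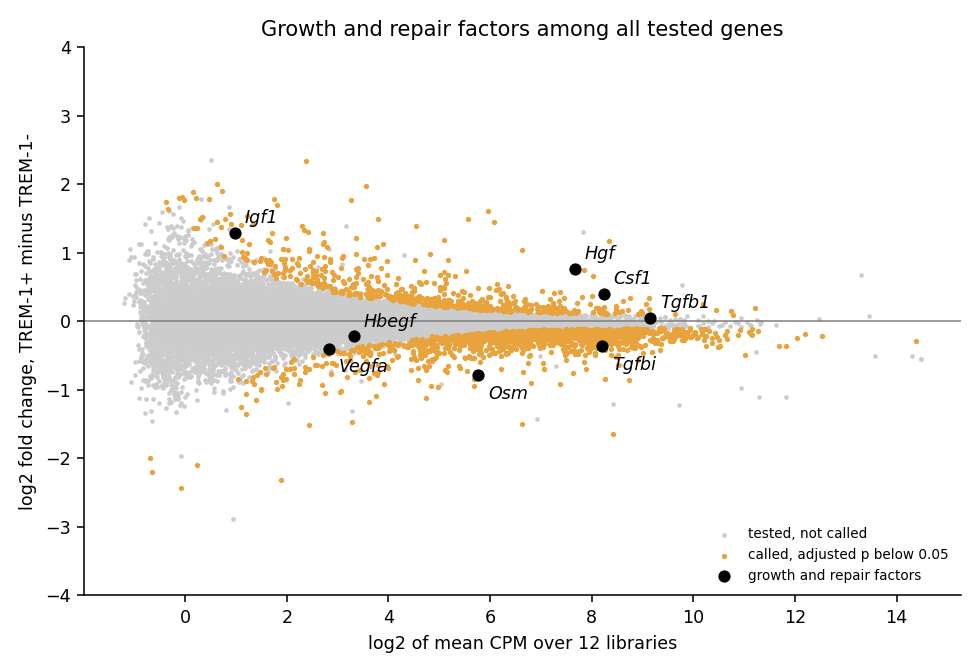
The 8 tested growth and repair factors (black) among all 18302 tested genes. The horizontal axis is the log2 of the mean CPM over 12 libraries and the vertical axis the log2 fold change (TREM-1+ minus TREM-1-); orange genes were called at an edgeR adjusted p below 0.05. Hgf, at 0.77, lies above and Osm, at -0.79, below most genes of like abundance, while Tgfb1 lies near 0.

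Levels were set beside each other per kilobase of the longest annotated transcript, since CPM grows with transcript length. The order of the means was the same in both fractions: Tgfb1, Tgfbi, Csf1, Hgf, Osm, Hbegf, Vegfa, Igf1, Pdgfb and Areg. Tgfb1 averaged 223.9 CPM per kilobase in TREM-1+ and 218.3 in TREM-1- eosinophils, above the ranges of all other members. Tgfbi followed with 85.6 in TREM-1+ and 110.6 in TREM-1-, Csf1 with 82.1 and 62.2, and Hgf with 74.0 and 43.4 CPM per kilobase in the same order of fractions. In TREM-1+ libraries the ranges of Tgfbi and Csf1 overlapped, as did those of Csf1 and Hgf, so these 3 were close neighbours. In TREM-1- libraries the range of Hgf, 35.2 to 54.8, lay apart from that of Tgfbi, 87.1 to 126.1.

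Osm came next, at 17.5 CPM per kilobase in TREM-1+ and 30.5 in TREM-1- eosinophils, apart from both neighbours in the TREM-1+ ranges. Hbegf (3.19 in TREM-1+ and 3.72 in TREM-1-) and Vegfa (1.76 in TREM-1+ and 2.35 in TREM-1-) overlapped. Among 14616 tested genes with a known length, Tgfb1, Tgfbi, Csf1 and Hgf stood at percentiles 99.0, 96.5, 96.3 and 95.8 in TREM-1+ eosinophils. Osm stood at percentile 79.4, Hbegf at 42.5, Vegfa at 30.9 and Igf1 at 8.37. High abundance was thus found among both the genes that differed and the one, Tgfb1, that was not called.

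**Figure D4:**
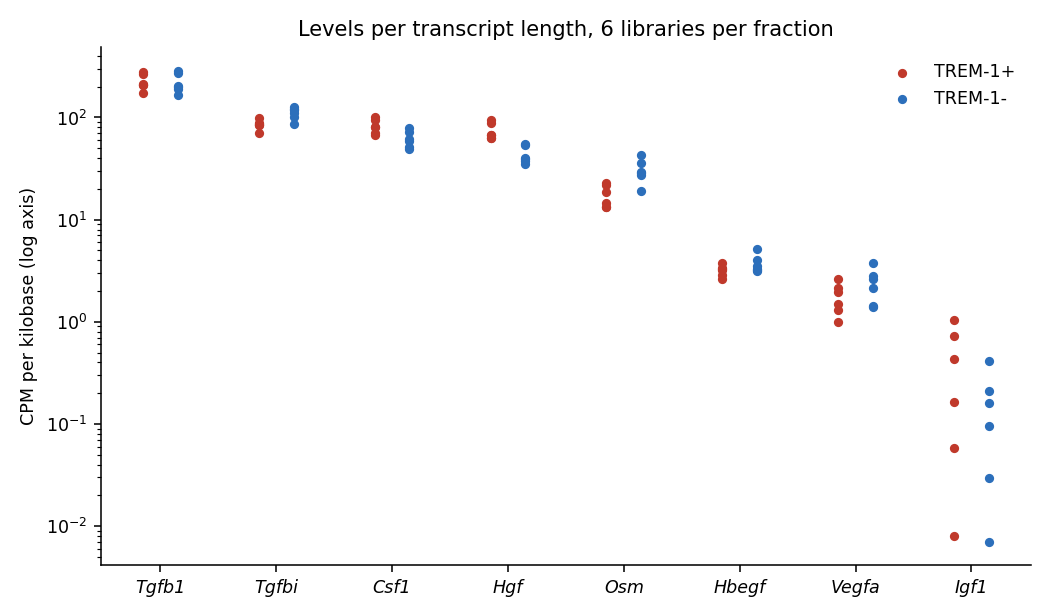
Levels of the 8 tested genes in CPM per kilobase of transcript (vertical log axis), with 1 point per library, TREM-1+ in red left of TREM-1- in blue (n = 6 each). Tgfb1 lies highest at means of 223.9 and 218.3, and the points of Igf1 spread over more than any other gene.

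Upstream sequences are shown for the genes called at high levels, so that the letters can be read beside the direction of change. RefSeq windows (assembly GRCm38.p6) were found for 7 of the 10 genes, and the 250 bases before the annotated start were searched on both strands for 8 short motifs. Of all 32851 such windows, 7.02% hold the STAT letters TTCNNNGAA, 6.75% the AP-1 letters TGANTCA and 16.6% the HIF letters ACGTG. The GC box GGGCGG is in 32.7%, the NF-kB letters GGNNTTNCC in 13.5% and the C/EBP letters TTGCNNAA in 9.56%. The letters AGATAA, bound by GATA factors, are in 9.99%, and the TATA box, searched as TATAAA, is in 12.4%. A stretch may match more than 1 motif, and no match shown here overlaps another. Capitals mark a match, and the sequences run 5′ to 3′ toward the start on the gene's strand. The Hgf window lies at chr5:16553245-16553494 on the plus strand, the Csf1 window at chr3:107760470-107760719 on the minus strand and the Tgfbi window at chr13:56609336-56609585 on the plus strand.
Hgf: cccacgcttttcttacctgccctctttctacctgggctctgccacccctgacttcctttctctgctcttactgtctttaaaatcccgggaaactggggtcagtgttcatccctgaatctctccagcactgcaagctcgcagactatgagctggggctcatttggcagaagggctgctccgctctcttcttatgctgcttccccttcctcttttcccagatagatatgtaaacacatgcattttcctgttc
Csf1: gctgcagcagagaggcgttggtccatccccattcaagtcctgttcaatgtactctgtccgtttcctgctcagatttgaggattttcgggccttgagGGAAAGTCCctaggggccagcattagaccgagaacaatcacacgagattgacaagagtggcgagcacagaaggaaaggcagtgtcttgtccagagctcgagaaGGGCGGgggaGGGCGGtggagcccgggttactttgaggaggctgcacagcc
Tgfbi: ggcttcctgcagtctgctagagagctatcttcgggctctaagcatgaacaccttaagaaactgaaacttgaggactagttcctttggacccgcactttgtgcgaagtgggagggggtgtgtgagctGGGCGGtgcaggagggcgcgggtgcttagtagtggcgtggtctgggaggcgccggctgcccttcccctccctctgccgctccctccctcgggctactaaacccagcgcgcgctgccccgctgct
Hgf had 0 matches here and 0 in the window of its second annotated start. Csf1 had 3: the NF-kB letters at position -154 from the start, as the reverse complement, and GC boxes at -51 and -41. Tgfbi had 1 GC box, at -124. A match is a run of letters and not a bound site, and the missing matches say only that these letters are not in these windows.

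The receptors through which these factors act were described from a list of 25 genes, of which 19 were tested: 5 were called higher in TREM-1+, 4 lower and 10 not, with a median log2 fold change of 0.14. Among all tested genes 3.10% were called higher and 6.72% lower with TMM factors, the shares to set beside this and the following lists. Scaling by library totals alone moved the median of all tested genes to 0.13. It called 1880 of the 18302 tested genes higher and 376 lower, the counts to set beside each list in that scaling. With library totals alone 5 of the 19 receptors were higher and 0 lower. The rises with the smallest p were in Lifr, Il6st and Igf1r. Nrp2 (0.92) and Itgb3 (0.17) were also called higher, but neither was called without lavage 5. In lavages 1 and 2 alone Nrp2 was at 0.36 (edgeR adjusted p = 0.865) and Itgb3 at 0.05 (adjusted p = 0.683). Nrp2 also lost its call without lavage 6, and Itgb3 without lavages 3 and 4. Lifr, the leukaemia inhibitory factor receptor chain, averaged 48.9 ± 4.54 CPM in TREM-1+ against 30.8 ± 2.41 CPM in TREM-1- eosinophils (SD, n = 6 each), a log2 fold change of 0.66 ± 0.07 (SE, edgeR adjusted p = 1.69e-08), called under every alternative tried. Its partner Il6st, which encodes gp130, averaged 7.08 ± 4.85 CPM in TREM-1+ against 3.04 ± 2.79 CPM in TREM-1- (SD, n = 6 each; edgeR adjusted p = 1.27e-05), and in lavages 1 and 2 alone, where its log2 fold change was 1.49, it was not called (adjusted p = 0.137). The summed T cell markers were also higher in TREM-1+ in 6 of 6 lavages, and their part in the Il6st difference was not tested. Osmr, the chain specific for oncostatin M, was below the filter at 0.0226 CPM in TREM-1+ against 0.00825 CPM in TREM-1-.

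Igf1r, the receptor of IGF-1, was higher by a small amount, at 379.3 ± 12.4 CPM in TREM-1+ against 335.3 ± 18.2 CPM in TREM-1- eosinophils (SD, n = 6 each; log2 fold change 0.18 ± 0.03, SE, edgeR adjusted p = 0.000322). In lavages 1 and 2 alone it was not called (0.11, adjusted p = 0.129). The genes lower in TREM-1+ included the TGF-beta receptor gene Tgfbr1 (log2 fold change -0.14) and the integrin genes Itgav (-0.16) and Itgb5 (-0.26), whose products can bind latent TGF-beta. With library totals alone these were -0.01, -0.04 and -0.13 and not called. Tgfbr1 also lost its call in lavages 3 to 6 alone (-0.11, edgeR adjusted p = 0.152), and Itgav (-0.11, adjusted p = 0.199) and Itgb5 (-0.17, adjusted p = 0.0948) lost theirs in lavages 1 and 2 alone. Itgb3, the other integrin beta chain gene of the list, was called higher (0.17), so the listed integrin genes moved both ways. Csf1r, the receptor of CSF-1, and Met, the receptor of HGF, are named although no rule picked them. Csf1r averaged 214.7 ± 24.3 CPM in TREM-1+ against 220.4 ± 27.2 CPM in TREM-1- (SD, n = 6 each; log2 fold change -0.04, edgeR adjusted p = 0.683). Met averaged 0.551 CPM in TREM-1+ against 1.31 CPM in TREM-1- (log2 fold change -1.22 ± 0.42, SE, edgeR adjusted p = 0.0629), so it was not called.

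Proteins that process, activate or bind the factors made a list of 33 genes, 20 of them tested, with 1 called higher, 5 lower and 14 not, and a median log2 fold change of -0.07. Furin, a convertase that cuts pro-TGF-beta and other precursors, averaged 901.4 ± 97.7 CPM in TREM-1+ against 1058 ± 125.1 CPM in TREM-1- eosinophils (SD, n = 6 each; log2 fold change -0.23 ± 0.03, SE, edgeR adjusted p = 1.77e-06). Smaller falls were found in the sheddase gene Adam10 (-0.15), the iRhom gene Rhbdf2 (-0.19), the urokinase receptor gene Plaur (-0.12) and Nrros (-0.12), whose product tethers latent TGF-beta. Of 15 alternatives, Adam10 was not called in 5, Plaur in 7, Rhbdf2 in 9 and Nrros in 10, each including fits that left out single lavages. In lavages 3 to 6 alone Adam10 was at -0.10 (edgeR adjusted p = 0.294) and Rhbdf2 at -0.22 (adjusted p = 0.125). All 5 falls were lost with library totals alone, where Furin was at -0.10 (edgeR adjusted p = 0.104), the list median at 0.06 and that of all tested genes at 0.13. Spint2, which encodes an inhibitor of the proteases that cut pro-HGF, was the gene called higher, at 16.1 ± 3.72 CPM in TREM-1+ against 11.8 ± 2.92 CPM in TREM-1- (SD, n = 6 each; log2 fold change 0.46 ± 0.11, SE, edgeR adjusted p = 0.00329). With lavages 3 to 6 alone Spint2 was not called (0.46, edgeR adjusted p = 0.0663).

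Other ligands of the same families were mostly low or undetected. Of 42 such genes 17 were tested, with 0 called higher and 0 lower by edgeR and a median log2 fold change of 0.12. DESeq2 and limma-voom called 0 as well, and 1 had an unadjusted edgeR p below 0.05. Over all tested genes 9.82% were called by edgeR, and whether 0 of 17 differs from that share was not tested.

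Genes of the SMAD pathway and known targets of TGF-beta moved in both directions although Tgfb1 was not called: of 24 genes 22 were tested, with 3 called higher, 6 lower and 13 not, and a median log2 fold change of -0.02. With library totals alone 4 were higher and 5 lower, and the median was 0.10. Id1, an inhibitor of helix-loop-helix factors, averaged 91.6 ± 3.55 CPM in TREM-1+ against 128.7 ± 5.91 CPM in TREM-1- eosinophils (SD, n = 6 each), a log2 fold change of -0.49 ± 0.04 (SE, edgeR adjusted p = 2.09e-10). Smad7, the inhibitory SMAD, was also lower (-0.30 ± 0.04, SE, edgeR adjusted p = 8.32e-07). Id1 and Smad7 stayed called with library totals alone.

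Itgae, which encodes the integrin chain CD103, was the leading rise of that list, at 83.2 ± 8.23 CPM in TREM-1+ against 57.2 ± 6.54 CPM in TREM-1- eosinophils (SD, n = 6 each; log2 fold change 0.54 ± 0.05, SE, edgeR adjusted p = 6.53e-09). Itgae is also known from T cells, whose summed markers were higher in TREM-1+ in 6 of 6 lavages, and their part in its difference was not tested. Id2 (0.20) and Klf10 (0.22), a TGF-beta-inducible zinc-finger gene, were higher by small amounts. Genes that TGF-beta is known to induce thus lay on both sides: Itgae and Klf10 higher, and Tgfbi and Smad7 lower in TREM-1+.

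Of 8 oxygen-sensing regulators of Vegfa, all tested, 1 was called higher and 1 lower, with a median log2 fold change of -0.02. With library totals alone 3 were higher and 1 lower, and the median was 0.11. Hif1a, the oxygen-regulated factor known to drive Vegfa, averaged 437.3 ± 71.9 CPM in TREM-1+ against 598.5 ± 84.8 CPM in TREM-1- eosinophils (SD, n = 6 each; log2 fold change -0.46 ± 0.04, SE, edgeR adjusted p = 1.04e-10). Egln3, a prolyl hydroxylase that marks HIF for degradation, was higher (0.34 ± 0.09, SE, edgeR adjusted p = 0.0114), but in lavages 3 to 6 alone it missed the threshold (0.33, adjusted p = 0.146).

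**Figure D5:**
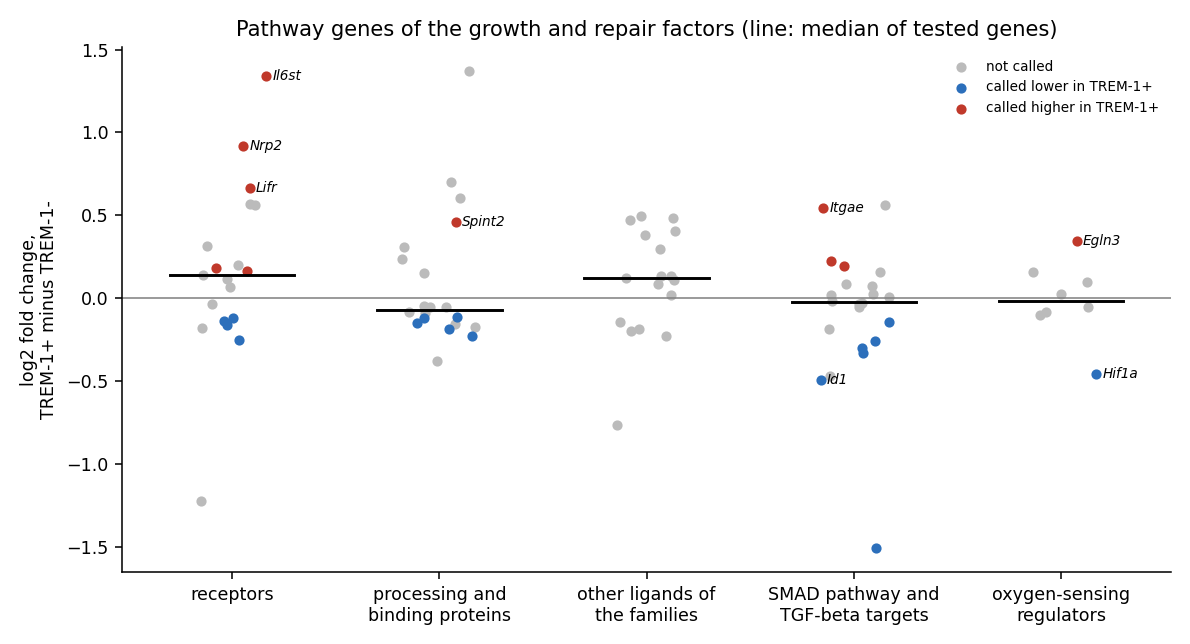
Log2 fold changes (vertical axis, TREM-1+ minus TREM-1-) of the tested genes in 5 pathway lists, with 1 point per gene, red where called higher, blue where called lower and grey where not called; black lines are list medians. Names stand beside some of the called genes. Receptors hold the rises of Lifr (0.66) and Il6st (1.34), the SMAD list the fall of Id1 (-0.49) and the rise of Itgae (0.54), and no ligand of the third column was called. Of all tested genes 9.82% were called.

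For each called factor, the 3 genes of at least 5 CPM whose log2 profile over the 12 libraries lay nearest were found among 10967 genes, by the root mean square difference of profiles centred on their means. Nearest to Hgf were Car4 (0.17), a membrane carbonic anhydrase gene, Ppfibp1 (0.18) and Il13ra1 (0.18), a receptor chain for interleukin-13, against a spread of 0.46 in Hgf itself. Car4 averaged 318.0 ± 71.5 CPM in TREM-1+ against 201.1 ± 44.3 CPM in TREM-1- eosinophils (SD, n = 6 each). Nearest to Csf1 were Arrdc4 (0.14), Npat (0.15) and Ctse (0.16), the cathepsin E gene, against a spread of 0.30. Nearest to Tgfbi were Unc119, Lfng and Sema4d (0.08 each), against a spread of 0.25.

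Nearest to Osm were Cebpb (0.25), a transcription factor gene of myeloid cells, the early response gene Ier3 (0.25) and the inhibitory receptor gene Lilrb4a (0.28), against a spread of 0.52. Cebpb averaged 286.2 ± 29.6 CPM in TREM-1+ against 448.0 ± 59.0 CPM in TREM-1- eosinophils (SD, n = 6 each). Nearest to Igf1 were Arg1 (0.59), the arginase 1 gene, Cd74 (0.73), the invariant chain gene of antigen presentation, and Fn1 (0.76), the fibronectin gene, against a spread of 1.93. Arg1 averaged 20.9 ± 19.4 CPM in TREM-1+ against 6.71 ± 5.38 CPM in TREM-1- (SD, n = 6 each), and Fn1 69.3 ± 65.3 CPM in TREM-1+ against 25.9 ± 27.5 CPM in TREM-1- (SD, n = 6 each). Like Igf1, these varied widely between lavages.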

How the data were processed

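Ribosome-depleted, stranded total RNA libraries were read as 100 bp paired ends, per the labels' protocols. Per the submitters' processing notes, the tools were kallisto 0.45.0, edgeR 3.42.4 and R 4.3.0, and the build was GRCm39. The authors deposited estimated counts per gene, which were whole numbers and were rounded here, changing nothing. The deposited log2 CPM values (17934 genes) were recomputed from the counts to within 5e-09 and served as a check. The annotation and the use of strand in counting are not given in the sources used here, and overlapping antisense genes may thus not be separated. Of the per-sample columns, 0 were left unused.

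The test was edgeR's robust quasi-likelihood F test (edgeR 4.0.16, R 4.3.3) with TMM factors, filterByExpr (minimum count 10, total 15), the lavage as a block and Benjamini-Hochberg adjustment over all tested genes. SEs came from the F statistic. DESeq2 1.42.0 and limma 3.58.1 were alternatives, beside other scaling, filters and sets of lavages. Levels are TMM-scaled CPM, and paired differences use a prior count of 1. Floors, 3 counts for a 0, cover counting error only.

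Both fractions of a lavage form a pair, per the series' design text. Within-pair correlations of the deviations from group means were 0.493, 0.502, 0.127, 0.368, 0.247 and 0.236 for lavages 1 to 6. Transcript lengths came from GENCODE vM21. Sequences came from RefSeq, whose assembly is GRCm38.p6 and not the authors' build. Named were all 10 factors, Trem1, the called genes of each list (for lists with over 6 called, the 3 smallest p in each direction) and the 3 nearest profiles of each called factor; 2 genes of these lists are not reported here. Genes, lists and markers were chosen with earlier results of these data known.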

Additional observations from a re-analysis of the deposited data

Results flagged for a closer look

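Areg was detected in 1 library of each fraction, and these stood apart from the rest of their group: 0.136 CPM in the TREM-1+ library of lavage 3 and 0.132 CPM in the TREM-1- library of lavage 4, each from 2 counts, against 0 in the other libraries. Both values are under the limit that a count of 0 allows. Of 28 groups of 6 libraries checked for a library far from the others, 2 stood out, both of them Areg. With 0 in the rest of the group any count stands apart, so the usual chance rate of 1 in 20 does not apply to them.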

How the results depend on the processing

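The lavage block decides most calls. Without the replicate block 83 genes were called in place of 1797. Of the factors 1 was then called higher, Hgf (edgeR adjusted p = 0.0108), and 0 lower, with Csf1 at 0.286, Tgfbi at 0.173, Osm at 0.1 and Igf1 at 0.886, while their folds stayed alike. In lavages 3 to 6 alone 1168 genes were called and in lavages 1 and 2 alone 1567; the cause was not tested. Hgf was called in 15 of 15 alternatives, with log2 fold changes from 0.76 to 0.90. Csf1, Tgfbi and Osm were called in 14 of 15, the exception being the fit without the block. Igf1 kept its call in 8 of 13, and was not called without the block, lavage 3, 4 or 5, or lavages 3 and 4 together (1.04, adjusted p = 0.215). Vegfa was called in none of 15. Leaving out 1 lavage at a time gave 1421 to 1588 called genes, 2 to 3 factors higher and 2 lower. With library totals alone 1880 genes were higher and 376 lower, against 568 and 1229 with TMM factors, and 4 factors were higher, Tgfb1 being added. No alternative reversed a called factor. Depth limits Areg, Pdgfb and Igf1, which had at most 2, 12 and 115 counts in a library.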
